A study of Mus musculus with 3 samples.

Results

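Glypicans are heparan sulfate proteoglycans held on the cell surface by a lipid anchor, and the Ndst enzymes place the first sulfate groups on heparan sulfate chains. The genes described here are the 6 glypicans, Gpc1 to Gpc6, and the 4 N-deacetylase/N-sulfotransferases, Ndst1 to Ndst4. They are 10 of the 30559 genes counted and were taken by gene symbol. The families were chosen by earlier results of these same libraries, among them the levels of Gpc5 and Ndst3, so their ratios are given as a description and no test was made.

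The study made single-nucleus RNA libraries from neural stem cells of the subventricular zone of newborn C57BL/6 mice, grown as neurospheres and differentiated until day 15 in vitro. There were 3 libraries, labelled control, CBPf/f and p300f/f, with 1 library per condition. In the CBP-ablated library the cells carried floxed Crebbp, which encodes the acetyltransferase CBP, and in the p300-ablated library floxed Ep300, which encodes its paralogue p300. According to the methods, Cre fused to mCherry was delivered by lentivirus and control cells received a lentivirus encoding red fluorescent protein, whereas tamoxifen is the treatment given in each of the 3 labels, and the line of mice behind the control library is not stated. Each library was a pool of about 15 cultures whose nuclei had been sorted by red fluorescence. The control library held 4884 nuclei with a median of 3219 unique molecular identifiers (UMIs), the CBP-ablated library 3017 nuclei with 4016, and the p300-ablated library 4648 nuclei with 3902.5. The level of the floxed genes, counted over the whole gene, did not check the labels, since Crebbp had 335 UMIs per 1000000 (CPM) in control nuclei against 369.5 in CBP-ablated ones, and Ep300 had 114 against 115 in p300-ablated ones. Between 1 and 7 barcodes were shared by any pair of libraries. With 1 library per condition, intervals are 95% intervals of the counting error only and do not cover the spread between cultures.

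Heparan sulfate is a long sugar chain built on a core protein through a short linker, extended by the exostosins, and then modified in steps, of which N-deacetylation and N-sulfation by an Ndst enzyme is the first and sets where later sulfate groups can be added. The sulfated chains bind growth factors of the FGF, Wnt and Hedgehog families and their receptors, and so tune how progenitors respond to them. In the brain, Gpc4 and Gpc6 are released by astrocytes and promote the formation of excitatory synapses, Gpc5 is a gene of astrocytes, and Ndst1 and Ndst2 are broadly used while Ndst3 and Ndst4 are found mainly in neural tissue. The study itself named Gpc5, from these same libraries, as a marker of its astrocyte cluster.

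The members lie in 3 neighbouring pairs and 4 single places in the mouse genome (GENCODE M21, GRCm38). Gpc5 (ENSMUSG00000022112) covers 14:115092215-116525179 on the plus strand, a span of 1433 kb, and Gpc6 (ENSMUSG00000058571) covers 14:116925315-117976544 on the same strand, 400.1 kb further on with no protein-coding gene between them. Gpc3 (ENSMUSG00000055653) and Gpc4 (ENSMUSG00000031119) lie on the minus strand of chromosome X, 107 kb apart, also with none between. Ndst3 (ENSMUSG00000027977) at 3:123526166-123690853 and Ndst4 (ENSMUSG00000027971) at 3:125404076-125728899 lie 1713 kb apart, on opposite strands, with 3 protein-coding genes between them. Other counted genes overlap Gpc1, Gpc2, Gpc3 and Ndst1, and most of the overlaps are on the opposite strand. Gpc2 overlaps Gm43720, a protein-coding model on the same strand, and reads that fall in both are not counted for either.

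Promoters are described for 6 of the 10 members: Gpc2, Gpc3, Gpc4, Gpc5, Ndst2 and Ndst3. They were taken from the RefSeq promoter table of GRCm38.p6, which gives 250 bases before and 50 after each start. Promoters of the other members are not described here, whether or not that table lists them. The promoters of Gpc5 and Ndst3 are printed because these were the only members whose level was past 2-fold from control in both ablated libraries. Capitals mark TGACG, the short form of the site bound by CREB, the factor after which CBP was named, and GGGCGG, the core of the site bound by Sp1 factors, both searched on either strand. Coordinates of the 3 stretches are chr14:115091965-115092264 (plus strand), chr3:123672428-123672727 and chr3:123619401-123619700 (both minus strand). The Gpc5 stretch holds the GENCODE start of its gene, 14:115092215. Both Ndst3 stretches lie inside the gene, whose GENCODE start on the minus strand is 3:123690853. They are internal starts, and the promoter at that GENCODE start is not described here.
Gpc5: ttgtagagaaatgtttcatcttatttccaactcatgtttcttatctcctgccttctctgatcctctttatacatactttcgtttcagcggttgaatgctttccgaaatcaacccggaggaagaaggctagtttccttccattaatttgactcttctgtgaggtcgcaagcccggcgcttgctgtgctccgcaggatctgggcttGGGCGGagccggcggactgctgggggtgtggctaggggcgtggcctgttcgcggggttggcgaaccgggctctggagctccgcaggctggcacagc
Ndst3, first start: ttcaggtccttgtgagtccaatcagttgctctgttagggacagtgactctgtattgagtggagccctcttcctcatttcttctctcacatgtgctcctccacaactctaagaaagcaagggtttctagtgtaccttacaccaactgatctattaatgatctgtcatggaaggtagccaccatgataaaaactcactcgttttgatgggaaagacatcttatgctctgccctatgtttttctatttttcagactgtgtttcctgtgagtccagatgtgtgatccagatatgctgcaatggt
Ndst3, second start: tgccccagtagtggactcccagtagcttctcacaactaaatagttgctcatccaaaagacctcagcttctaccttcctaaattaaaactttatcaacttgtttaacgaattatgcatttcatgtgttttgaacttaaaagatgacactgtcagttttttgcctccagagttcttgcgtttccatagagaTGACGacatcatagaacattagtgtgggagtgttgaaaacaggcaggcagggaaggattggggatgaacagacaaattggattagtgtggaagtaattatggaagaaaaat

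The Gpc5 promoter had 54.7% G and C, near the median of 52.7% over all 32851 promoters, and 17 CpG pairs against a median of 7, while the Ndst3 stretches had 43% and 39% with 1 and 3 CpG pairs. TGACG was found once in the second Ndst3 stretch, in none of the other members with a described promoter, and in 20.8% of all promoters. GGGCGG was found once in Gpc5 and Gpc4, 3 times in Gpc2 and Ndst2, 4 times in Gpc3 and in 35.7% of all promoters. The full palindrome TGACGTCA (1.79% of all promoters) and the STAT site TTCNNNGAA (8.30%) were in none of the members with a described promoter. TATAAA, also searched on either strand, is in 13.6% of all promoters. It was found once in Gpc5, only on the opposite strand (tttata as printed, without capitals).

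Across all nuclei of the 3 libraries the glypicans ranged from no UMI to 2382 CPM. Gpc5 had 2382 CPM (2359 to 2406) in control, 213 (205 to 221) in CBP-ablated and 922 (909 to 936) in p300-ablated nuclei, from 38859, 2712 and 17410 UMIs. Its control level was above both ablated libraries by far more than the counting error, and the CBP-ablated level was the lowest. The log2 ratio to control was −3.49 (−3.54 to −3.43) in CBP-ablated and −1.37 (−1.39 to −1.34) in p300-ablated nuclei, and from the lowest ratio upwards Gpc5 ranked 10 of 11883 and 101 of 12247 genes with at least 100 UMIs in the pair of libraries. The other abundant glypican of the same chromosome, Gpc6, had 827 CPM in control, 703 in CBP-ablated and 959 in p300-ablated nuclei, log2 ratios of −0.24 and 0.21. Gpc4 had 153 CPM in control, 215 in CBP-ablated and 233 in p300-ablated nuclei, log2 ratios of 0.49 and 0.60. Both ablated libraries were thus above control for Gpc4 and on either side of it for Gpc6, all within 2-fold.

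The remaining glypicans had few UMIs or none. Gpc1 had 4.78, 6.28 and 5.14 CPM in the control, CBP-ablated and p300-ablated library, from 78, 80 and 97 UMIs, and the intervals of both log2 ratios held 0. Gpc3, whose human counterpart is mutated in an overgrowth syndrome, had 3.80, 5.18 and 2.65 CPM, and the intervals of both its log2 ratios to control held 0 as well, while the CBP-ablated level was above the p300-ablated one by a log2 ratio of 0.97 (0.41 to 1.53). Gpc2, a glypican of newly formed neurons, had 0 UMIs in all 3 libraries. A count of 0 allows up to 0.184, 0.235 and 0.159 CPM of reads assigned to Gpc2 alone (3 UMIs in the library), but since reads shared with Gm43720 are not counted, this sets no limit on the level of Gpc2 itself.

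Of the Ndst enzymes, Ndst3 was the member whose ablated libraries lay on opposite sides of control. It had 68.5 CPM (64.5 to 72.6) in control, 28.6 (25.8 to 31.7) in CBP-ablated and 139 (134 to 144) in p300-ablated nuclei, from 1117, 365 and 2624 UMIs, and none of these intervals overlapped. The log2 ratio was −1.26 (−1.43 to −1.09) in CBP-ablated and 1.02 (0.92 to 1.12) in p300-ablated nuclei, and the second was 0.998, just under 2-fold, without nuclei called doublets. Between the ablated libraries the ratio of CBP-ablated to p300-ablated was −2.28, and Ndst3 ranked 12 of 11956 genes from the lowest. Ndst4 had 5.39 CPM in control, 18.8 in CBP-ablated and 7.05 in p300-ablated nuclei, from 88, 240 and 133 UMIs, log2 ratios of 1.80 (1.44 to 2.17) and 0.39 (−0.01 to 0.79). It was the only member past 2-fold higher than control in the CBP-ablated library. Ndst1 had 50.9, 71.3 and 68.1 CPM and was higher than control in both ablated libraries, by 0.49 and 0.42 on the log2 scale. Ndst2 had 16.3, 16.2 and 11.4 CPM, a log2 ratio of −0.01 in CBP-ablated nuclei with an interval that held 0, and the p300-ablated library was lower by a log2 ratio of −0.51.

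**Figure D1:**
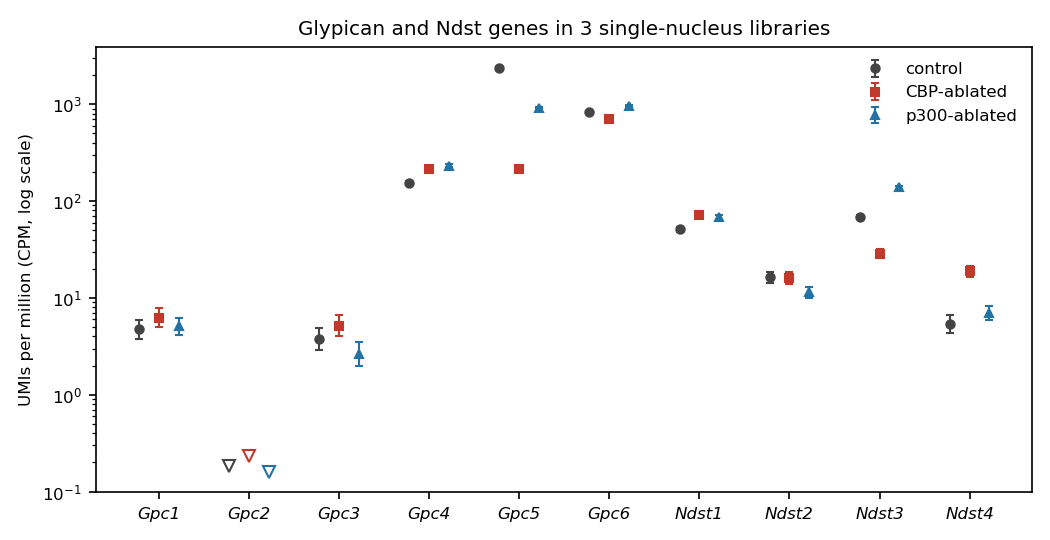
UMIs per 1000000 (CPM, log axis) of the 10 genes in the control (circles), CBP-ablated (squares) and p300-ablated (triangles) library, with 95% Poisson intervals; open triangles pointing down mark the level that 3 UMIs would give for Gpc2, which had none. Gpc5 spans 213 to 2382 CPM, and Ndst3 lies below control in the CBP-ablated (28.6 CPM) and above it in the p300-ablated library (139 CPM).

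A ratio past 2-fold with at least 100 UMIs in the pair of libraries stood in for a call, and 9 members had enough UMIs. In the CBP-ablated library 2 members were lower (Gpc5 and Ndst3) and 1 was higher (Ndst4), where 3.99% of all genes were past 2-fold lower and 2.89% higher. The p300-ablated library had 1 member lower (Gpc5) and 1 higher (Ndst3), against 2.12% and 0.694% of all genes. The members were chosen with these ratios known, so nothing is read from the difference between their share and that of all genes. Their median log2 ratio was 0.39 in CBP-ablated and 0.21 in p300-ablated nuclei, where that of all genes was 0.06 and −0.03. Both comparisons used the same control library, so its sampling enters both ratios of a gene.

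Levels of different genes were set side by side only per length, since nuclear RNA is rich in unspliced transcripts and longer genes collect more UMIs. Per 100 kb of gene span, control nuclei held 166 CPM of Gpc5, 151 of Ndst2, 137 of Gpc4, 79.3 of Ndst1, 78.7 of Gpc6 and 41.6 of Ndst3. The scale takes UMIs to grow in proportion to span, which was not tested. It raises short genes most, such as Ndst2, which spans 10.8 kb and had 16.3 CPM before scaling. On this scale Gpc5 was 14.8 in the CBP-ablated library, below Gpc4 (191), Ndst2 (149), Ndst1 (111) and Gpc6 (66.9) there. Gpc1 was at 16.4 per 100 kb in control, Ndst4 at 1.66 and Gpc3 at 1.11.

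To see which nuclei carried each gene, the nuclei of the 3 libraries were clustered together and 10 of 12 clusters were named from marker genes that include no member. The names follow those of the study, except for committed oligodendrocyte precursor-like. The study gave its cluster with markers Bcas1 and Enpp6 the name oligodendrocyte progenitor cells. The names mean no more than that the markers were enriched. RGC is short for radial glial cell, PSC for pluripotent stem cell, NPC for neuronal progenitor and OPC for oligodendrocyte progenitor cell. Cluster 5 is the cluster that the study annotated as immature neurons, and it is called by its number here. The classes are NPC/OPC-like (Pdgfra, Cspg4; 1088 control, 418 CBP-ablated and 1758 p300-ablated nuclei), RGC/PSC-like (Shroom3, Lrp2; 544, 400 and 837), glial progenitor-like (Gfap, Aqp4; 453, 391 and 583), committed oligodendrocyte precursor (COP)-like (Bcas1, Enpp6; 394, 611 and 239), oligodendrocyte-like (Mog, Mobp; 160, 486 and 193), cluster 5-like (Kcnj6, Nell2; 362, 260 and 511), proliferating-like (Mki67, Top2a; 130, 123 and 190), neuron-like (Rbfox3, Gad1; 101, 169 and 87) and microglia-like (Csf1r, Cx3cr1; 183, 75 and 53). The astrocyte-like cluster (Slc1a2, Apoe) held 1280 control nuclei and none of either ablated library, so there the class and the library cannot be told apart. Gpc4, Gpc5, Gpc6, Ndst3 and Ndst4 were among the 1576 genes used for clustering, and differences between classes are therefore description. Summed astrocyte markers were at 7259.9, 1948 and 3015 CPM in the control, CBP-ablated and p300-ablated library, and oligodendrocyte markers at 808, 3593 and 916. The part of class sizes in the whole-library ratios is given below for Gpc5 and Ndst3, and for Ndst4 in the CBP-ablated library. Outside the astrocyte-like class the CBP-ablated and p300-ablated log2 ratios were −0.48 and −0.03 for Gpc6 and 0.34 and 0.45 for Gpc4. They were 0.38 and 0.32 for Ndst1, and 0.19 and −0.31 for Ndst2.

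Gpc5 was concentrated in astrocyte-like nuclei. They had 6625 CPM, 98.0% of them held a Gpc5 UMI after every nucleus was thinned to 1500 UMIs, and they contributed 26005 of the 38859 control UMIs, or 66.9%. In control nuclei the order below them was cluster 5-like at 2874 CPM, glial progenitor-like at 1613, proliferating-like at 1271, NPC/OPC-like at 839.7 and RGC/PSC-like at 594, each above the next beyond counting error. Neuron-like nuclei at 519 did not differ from RGC/PSC-like nuclei beyond counting error, nor did oligodendrocyte-like nuclei at 371 from microglia-like nuclei at 316. The COP-like class was lowest at 226 CPM. Microglia, which come from another lineage, gave a guide to UMIs from free RNA, for 35.5% of control microglia-like nuclei held a Gpc5 UMI at a median depth of 1134 UMIs (99.4% of astrocyte-like nuclei at 2992, before thinning), and their level was 13.3% of the library's. Control COP-like nuclei were at 9.50% of the library's level and oligodendrocyte-like nuclei at 15.6%. CPM weighs a given amount of free RNA more in nuclei with few UMIs, such as the microglia-like ones. Per nucleus both classes held more Gpc5, with 378 UMIs in 394 COP-like and 313 in 160 oligodendrocyte-like nuclei. Microglia-like nuclei had 90 in 183. The part of free RNA in the COP-like and oligodendrocyte-like levels was not tested.

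Outside the astrocyte-like class, Gpc5 remained low in the CBP-ablated library and differed less in the p300-ablated library. Control nuclei outside that class had 1038 CPM, which gave log2 ratios of −2.29 in CBP-ablated and −0.17 in p300-ablated nuclei, and past 2-fold lower were 2.13% and 0.943% of all genes in the same nuclei (1.91% and 0.362% higher). When control levels of every class were combined with the class sizes of the ablated library, Gpc5 shifted by −1.55 log2 units in CBP-ablated and −1.11 in p300-ablated nuclei from class sizes alone, and the rest, −1.94 and −0.26, lay within classes. Class sizes thus held most of the p300-ablated difference and less than the within-class part of the CBP-ablated one, with the astrocyte-like nuclei counted as class size.

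Within classes, Gpc5 was lower than control in 9 of 9 classes of the CBP-ablated library, in 8 of them past 2-fold. Of all genes with at least 20 UMIs within a class, 3.68% of the ratios over the same classes were past 2-fold lower and 4.47% higher in CBP-ablated nuclei, and 2.73% and 2.76% in p300-ablated nuclei. The RGC/PSC-like nuclei had 594 CPM in control and 112 in CBP-ablated nuclei, a log2 ratio of −2.40 (−2.63 to −2.18), and proliferating-like nuclei 1271 and 247, a ratio of −2.37. COP-like, neuron-like and microglia-like nuclei had ratios of −2.19, −2.14 and −2.03, the last from 90 control and 8 CBP-ablated UMIs. In CPM the control level of COP-like nuclei was not above that of microglia-like nuclei, the guide to free RNA, with the limit given above. The part of free RNA in these ratios was not tested. NPC/OPC-like nuclei had 839.7 and 285 CPM, a ratio of −1.56 (−1.71 to −1.41), and thinned to equal depth 44.6% of control and 22.1% of CBP-ablated nuclei held a UMI. At a finer clustering resolution the NPC/OPC-like class was not made up alike in the libraries. Its clusters there held 608, 275 and 322 control, 583, 37 and 31 CBP-ablated, and 404, 749 and 630 p300-ablated nuclei. That finer class held 651 CBP-ablated nuclei in all, against 418 in the class used here. Other classes were not made up alike there either. Oligodendrocyte-like clusters held 109 and 51 control, 277 and 209 CBP-ablated, and 163 and 30 p300-ablated nuclei. Glial progenitor-like clusters held 440 and 6 control, 368 and 5 CBP-ablated, and 480 and 85 p300-ablated nuclei. Glial progenitor-like nuclei had 1613 and 494 CPM, a ratio of −1.71. Oligodendrocyte-like nuclei were the exception in size at 371 and 249.9 CPM, −0.57, and this became 0.79 with 10% of UMIs subtracted as free RNA. In the CBP-ablated library these nuclei were also the class with the most Gpc5 UMIs, 27.2% of them.

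The lowest Gpc5 ratio, in cluster 5-like nuclei, rested on how nuclei were assigned. They had 2874 CPM in control and 290.1 in CBP-ablated nuclei, −3.31. But the ratio was −1.11 when the members and the heparan and chondroitin sulfate genes listed below were left out of clustering, and −0.59 at a finer resolution. In the first of these settings the cluster kept only 51 CBP-ablated nuclei, and 191 CBP-ablated nuclei with 8 control and 2 p300-ablated nuclei formed a cluster of their own led by Gpr149, Syt1, Moxd1 and Ets1.

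In the p300-ablated library the classes fell on both sides of control for Gpc5. Neuron-like, RGC/PSC-like and glial progenitor-like nuclei were past 2-fold lower, at 156, 239.9 and 736 CPM and log2 ratios of −1.74, −1.31 (−1.44 to −1.18) and −1.13 (−1.23 to −1.04). At the finer resolution a glial progenitor-like cluster held 85 p300-ablated, 6 control and 5 CBP-ablated nuclei. NPC/OPC-like nuclei had 893 CPM against 839.7 in control, a ratio of 0.09, proliferating-like nuclei 1288 against 1271, a ratio of 0.02, and cluster 5-like nuclei 3174 against 2874, a ratio of 0.14. These 3 classes were at or a little above control, although the sign in cluster 5-like nuclei turned to −0.23 and −0.03 under other class assignments. COP-like, oligodendrocyte-like and microglia-like nuclei lay between, at −0.74, −0.74 and −0.83. Microglia-like nuclei of the p300-ablated library, the guide to free RNA, had 177 CPM from 25 UMIs. In CPM, neuron-like nuclei at 156 and COP-like nuclei at 136 were not above that level, and oligodendrocyte-like nuclei at 222 were close to it. Per nucleus they held more, with 51 UMIs in 87 neuron-like, 160 in 239 COP-like and 263 in 193 oligodendrocyte-like nuclei. Microglia-like nuclei there numbered 53. The part of free RNA in these levels was not tested. RGC/PSC-like nuclei did not differ from oligodendrocyte-like nuclei there beyond counting error.

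**Figure D2:**
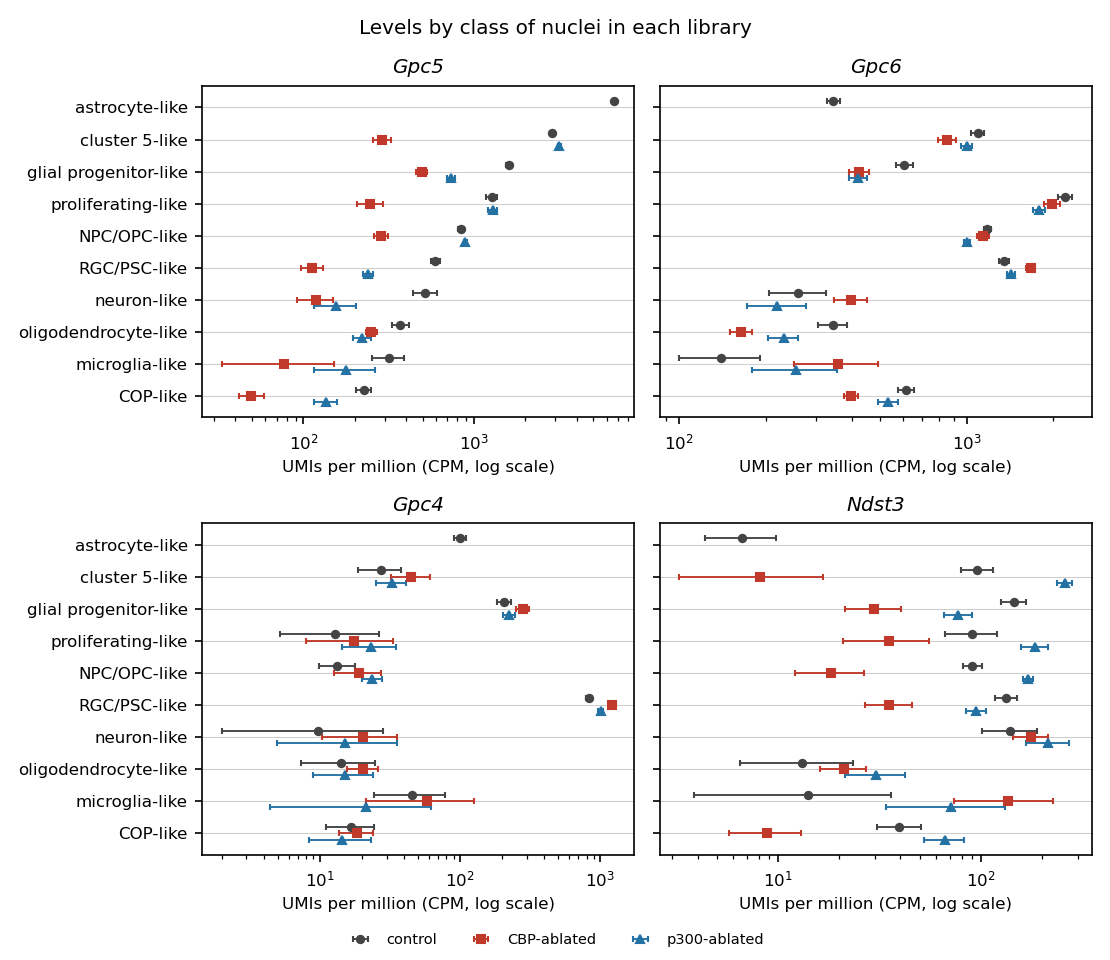
Levels of Gpc5, Gpc6, Gpc4 and Ndst3 (CPM, log axes, a different range in each panel) in 10 classes of nuclei in the control (circles), CBP-ablated (squares) and p300-ablated (triangles) library, with 95% Poisson intervals; a class with no nuclei or no UMI in a library has no point. Astrocyte-like nuclei occur in control only, with Gpc5 at 6625 CPM and Ndst3 at 6.62 CPM, and Gpc4 is highest in RGC/PSC-like nuclei of all 3 libraries.

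Ndst3 was distributed unlike Gpc5 among control nuclei. Astrocyte-like nuclei were lowest, at 6.62 CPM, while glial progenitor-like, neuron-like and RGC/PSC-like nuclei were highest, at 145, 139 and 132 CPM, and did not differ from each other beyond counting error. Cluster 5-like, NPC/OPC-like and proliferating-like nuclei followed at 95.8, 90.5 and 90.03 CPM, then COP-like nuclei at 39.5, and microglia-like and oligodendrocyte-like nuclei at 14.0 and 13.03. Because astrocyte-like nuclei added little Ndst3 to the control sum, leaving them out made the CBP-ablated ratio more negative, −1.62, and the p300-ablated ratio smaller, 0.66.

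Within classes of the CBP-ablated library Ndst3 was past 2-fold lower than control in 6 of 8 classes with at least 20 UMIs. The exceptions were neuron-like and oligodendrocyte-like nuclei. Microglia-like nuclei had too few UMIs for a ratio but went the other way, at 14.0 CPM in control and 135 in CBP-ablated nuclei, from 4 and 14 UMIs. NPC/OPC-like nuclei had 90.5 CPM in control and 18.3 in CBP-ablated nuclei, −2.31 (−2.93 to −1.74). As given for Gpc5, that class was not made up alike in the libraries at a finer clustering resolution. Glial progenitor-like nuclei had 145 and 29.7 CPM, −2.29, and RGC/PSC-like nuclei 132 and 35.1, −1.92. COP-like nuclei had 39.5 and 8.80 CPM, −2.17, from 66 and 25 UMIs, and proliferating-like nuclei 90.03 and 35.0, −1.36. Neuron-like nuclei had 139 and 176 CPM, 0.33 (−0.19 to 0.88), and oligodendrocyte-like nuclei 13.03 and 21.03, 0.69 with an interval that held 0. Neuron-like nuclei alone thus held 28.5% of the Ndst3 UMIs of the CBP-ablated library. The cluster 5-like ratio of −3.57 rested on 7 CBP-ablated UMIs and was −1.82 with the same genes left out of clustering as for Gpc5.

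In the p300-ablated library Ndst3 was higher than control in 6 of 8 classes and lower in glial progenitor-like and RGC/PSC-like nuclei. Cluster 5-like nuclei had 95.8 CPM in control and 259 in p300-ablated nuclei, 1.43 (1.14 to 1.73), proliferating-like nuclei 90.03 and 184, 1.03, and NPC/OPC-like nuclei 90.5 and 170.1, 0.91 (0.73 to 1.09). Thinned to equal depth, 8.89% of control and 17.4% of p300-ablated NPC/OPC-like nuclei held an Ndst3 UMI, against 1.92% of CBP-ablated ones. Oligodendrocyte-like nuclei had a ratio of 1.22 from 11 and 36 UMIs, neuron-like nuclei 0.61 and COP-like nuclei 0.74. The oligodendrocyte-like levels, 13.03 CPM in control and 30.3 in p300-ablated nuclei, were not above those of microglia-like nuclei. These were 14.0 and 71.0 CPM, from 4 and 10 UMIs. COP-like nuclei, at 66.1 CPM in the p300-ablated library, were not above them there either. Microglia-like nuclei are not taken as a guide to free RNA for Ndst3. In the CBP-ablated library they had 135 CPM, where the whole library had 28.6. In glial progenitor-like nuclei Ndst3 was instead lower, 145 and 76.9 CPM, −0.91 (−1.22 to −0.60), and in RGC/PSC-like nuclei 132 and 94.5, −0.49 (−0.73 to −0.24). The finer glial progenitor-like clusters, given for Gpc5, were not made up alike in the libraries. With the same limits as for Gpc5, class sizes alone shifted Ndst3 by 0.10 in CBP-ablated and 0.46 in p300-ablated nuclei. The within-class parts were −1.35 and 0.56.

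**Figure D3:**
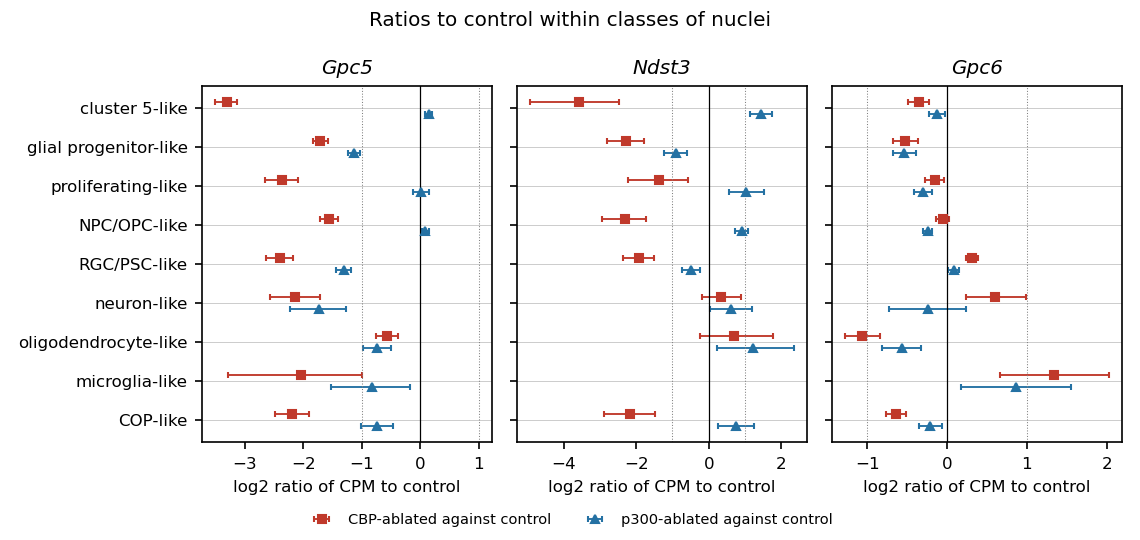
Log2 ratios of CPM to control within classes for Gpc5, Ndst3 and Gpc6 in the CBP-ablated (squares) and p300-ablated (triangles) library, with 95% counting intervals; the solid line is no difference and the dotted lines are 2-fold. Gpc5 squares lie left of 0 in all 9 classes, from −3.31 to −0.57, while Ndst3 triangles lie right of 0 in 6 of 8 classes.

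Gpc4 marked one class in every library. RGC/PSC-like nuclei had 836 CPM in control, 1218 in CBP-ablated and 1007 in p300-ablated nuclei, and supplied 62.3%, 73.6% and 75.7% of the Gpc4 UMIs. Among the named classes, glial progenitor-like nuclei followed at 207, 279.9 and 225 CPM and astrocyte-like nuclei at 99.6, and every other one was under 60 CPM. Nuclei of the unnamed clusters together had 186, 353 and 351 CPM, above glial progenitor-like nuclei in both ablated libraries. In RGC/PSC-like nuclei the log2 ratio to control was 0.54 (0.45 to 0.64) in CBP-ablated and 0.27 (0.18 to 0.36) in p300-ablated nuclei, and none of the classes with enough UMIs was past 2-fold. Gpc3 and Gpc4 are on the X chromosome, and Xist, the RNA of the silenced X, had 1079, 1694 and 1012 CPM in the control, CBP-ablated and p300-ablated library. The sexes of the pups in each pool are not stated, and the part of Xist in the Gpc4 ratio was not tested.

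Gpc6 was spread over the progenitor classes. Proliferating-like nuclei had the most, 2201 CPM in control, 1979 in CBP-ablated and 1788 in p300-ablated nuclei, followed by RGC/PSC-like nuclei at 1346, 1671 and 1426, NPC/OPC-like nuclei at 1179, 1139.7 and 1000.2, and cluster 5-like nuclei at 1093, 855 and 999.5. Oligodendrocyte-like nuclei had 342, 164 and 231 CPM, and were lower in both ablated libraries, by −1.06 (−1.27 to −0.84) and −0.57. That class was not made up alike in the libraries at the finer resolution, as given for Gpc5. Microglia-like nuclei had 140.4, 357 and 256 CPM, higher in the ablated libraries, but from only 40, 37 and 36 UMIs, of which a single nucleus held as many as 13. RGC/PSC-like nuclei were slightly above control in both, 0.31 and 0.08. All other ratios were within 2-fold.

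Ndst1 was highest in RGC/PSC-like, oligodendrocyte-like and glial progenitor-like nuclei, at 104, 94.8 and 82.9 CPM in control, and these 3 levels did not differ beyond counting error. All other named classes were under 45 CPM in control. No class with at least 20 UMIs was past 2-fold from control, with ratios from −0.36 to 0.46 in CBP-ablated and −0.14 to 0.59 in p300-ablated nuclei, the latter with an interval above 0 in 4 of 8 classes. Rps14, a ribosomal protein gene on the opposite strand, overlaps Ndst1 and had 347, 269 and 412 UMIs. Ndst2 was highest in microglia-like nuclei, at 56.1 CPM in control, 28.9 in CBP-ablated and 42.6 in p300-ablated nuclei, from 16, 3 and 6 UMIs. The next class in control was astrocyte-like at 22.9 CPM.

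Ndst4 UMIs came mostly from oligodendrocyte-like nuclei in the CBP-ablated library. Oligodendrocyte-like nuclei had 15.4 CPM in control, 58.3 in CBP-ablated and 30.3 in p300-ablated nuclei, from 13, 172 and 36 UMIs in 9, 78 and 20 nuclei, log2 ratios of 1.92 (1.11 to 2.86) and 0.98. Class sizes held 0.87 and the within-class part 0.93 of the whole-library CBP ratio, and oligodendrocyte markers were also more abundant in that library, as given above. The finer oligodendrocyte-like clusters, given for Gpc5, were not made up alike in the libraries. In neuron-like nuclei the control level of 61.6 CPM came from 19 UMIs in 3 nuclei, 12 of them in a single nucleus, and the ratio of −2.19 in the CBP-ablated library has no more behind it than that. Every other named class was at most at 11.6 CPM in all libraries.

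Over all members, 54 ratios within classes had at least 20 UMIs in the pair of libraries in each comparison with control. In the CBP-ablated library 16 of them were past 2-fold lower, of which 8 were Gpc5 and 6 Ndst3, and 2 were higher, where 3.68% and 4.47% of the ratios of all genes were. The p300-ablated library had 3 lower, all of Gpc5, and 3 higher, all of Ndst3, against 2.73% and 2.76% of the ratios of all genes. As before, nothing is read from these differences. Ratios of 1 gene in several classes share free RNA and the culture pool, so they are not independent of each other.

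The genes whose level followed each member most closely over 28 combinations of class and library were listed for members with at least 500 UMIs, as a description of points that share libraries, depth and clustering. For Gpc5 they were Slc1a2, the main astrocyte glutamate transporter (Pearson r = 0.87), Rgs20 and Bmper. Those of Gpc4 were Pdgfd, Shroom3 and Palld (r from 0.94 to 0.95), of which Shroom3 and Palld are markers of the RGC/PSC class. Gpc6 was closest to the AMPA receptor gene Gria3 (0.89), Mkx and Slc35f1, and Ndst1 to Adipor2 (0.93), Bace2 and Inpp5a. Ndst2 was closest to Edc3 (0.83) and Abl2, and Ndst3 to Adamts3 (0.73), Fam124a and Meg3. Between members the highest r was 0.61, for Gpc4 with Ndst1, and the neighbours Gpc5 and Gpc6 had r = 0.28.

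The other genes of the heparan sulfate pathway were described by a list of 51 genes written with earlier results of these data known, of which 45 had enough UMIs. In the CBP-ablated library 4 were past 2-fold lower and 1 was higher, with a median log2 ratio of 0.004, where 3.99% and 2.89% of all genes were past 2-fold and their median was 0.06. Of the same list in the p300-ablated library 2 were lower and 1 was higher, with a median of 0.10, against 2.12% and 0.694% of all genes and a median of −0.03. Lower in the CBP-ablated library were Extl1 (−1.45), an exostosin-like glycosyltransferase, Nrp1 (−1.43), the semaphorin and VEGF co-receptor neuropilin-1, Sulf1 (−1.34), which removes 6-O-sulfate outside the cell, and Sdc3 (−1.06), the syndecan of neural tissue. Nrp1 went from 132 CPM in control to 49.2 and Sulf1 from 52.4 to 20.7, while Extl1 had only 91 and 26 UMIs. Outside the astrocyte-like class the ratios of Sulf1, Sdc3 and Nrp1 were −1.66, −1.24 and −1.01, and Extl1 had too few UMIs there, 45 and 26. Gpr158, a neuronal receptor that binds Gpc4, had −0.95 over all nuclei and −1.13 outside that class. Hs3st1, a 3-O-sulfotransferase, was higher at 12.8 and 28.6 CPM, 1.16, and 0.82 outside the astrocyte-like class. In the p300-ablated library Hs3st2 (−2.23, 101 and 25 UMIs) and the FGF receptor Fgfr3 (−1.07) were lower, but outside the astrocyte-like class Fgfr3 was at −0.28 and Hs3st2 had 30 and 25 UMIs, and Papss2, which makes the sulfate donor, was higher at 6.01 and 15.4 CPM, 1.36, and 1.22 outside that class.

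By role, several abundant enzymes that act beside the Ndst family, chosen after their values were seen, were within 2-fold of control. The exostosins Ext1 (713, 769 and 883 CPM in the control, CBP-ablated and p300-ablated library) and Ext2 (80.1, 101 and 89.9) polymerize the chain, and Glce (29.9, 26.4 and 29.6) and Hs2st1 (228, 201 and 228) modify it after N-sulfation. Xylt1, which starts the linker, had 1322, 862 and 2065 CPM, on either side of control as Ndst3 was, with log2 ratios of −0.62 and 0.64. For comparison, 11 of 15 genes of chondroitin sulfate synthesis, the other sulfated chain of brain proteoglycans, had enough UMIs. Chst7 was the only one past 2-fold, lower in the CBP-ablated library at 14.5 and 5.10 CPM, −1.50, where 3.99% of all genes were. The list medians were −0.17 and −0.03, against 0.06 and −0.03 for all genes. Outside the astrocyte-like class the list medians were −0.44 and −0.13, against 0.07 and −0.01 for all genes. Those of the heparan sulfate list were −0.04 and 0.07 there.

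**Figure D4:**
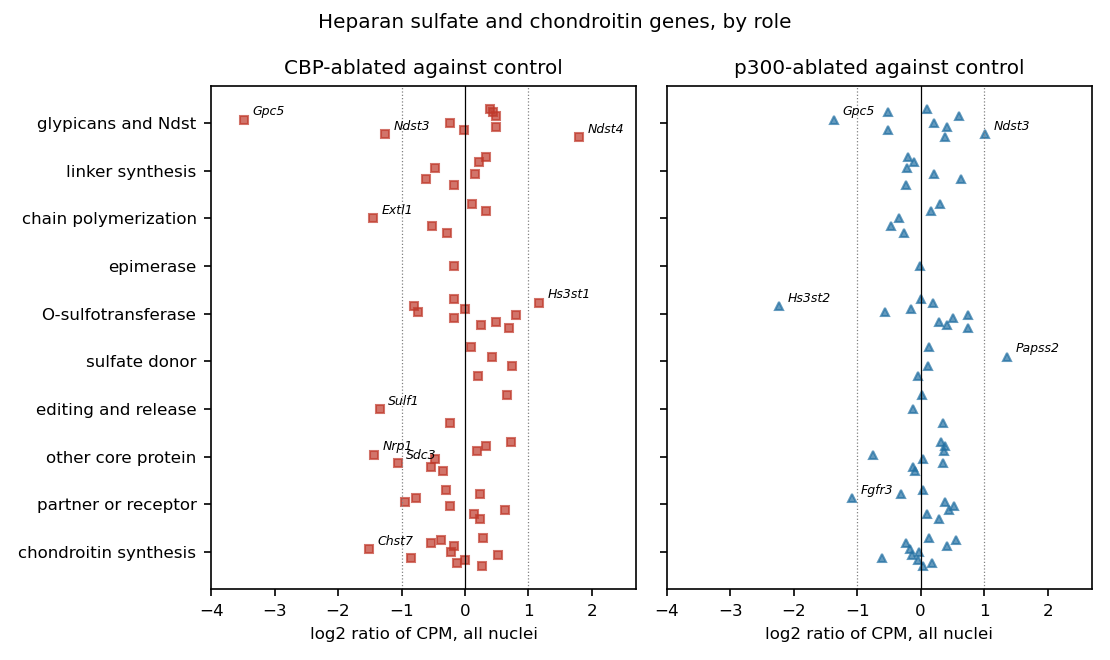
Log2 ratios of CPM to control over all nuclei for the 9 members and the heparan sulfate and chondroitin genes with at least 100 UMIs in the pair of libraries, in rows by role, for the CBP-ablated (left) and p300-ablated (right) library; dotted lines are 2-fold and genes past them are named. Gpc5 at −3.49 lies farthest to the left of the CBP-ablated panel, and Hs3st2 at −2.23, with 25 UMIs, of the p300-ablated one.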

How the data were processed

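The authors aligned the reads to GRCm38 (mm10) with Cell Ranger 3.1, and deposited UMI counts over exons and introns for each gene and nucleus, without normalization. All nuclei were kept. Control counts sum to 16312170, CBP-ablated to 12748336 and p300-ablated to 18876682. The members and lists were chosen with earlier results of these data known. The named genes are the members, pathway genes past 2-fold, class markers, Xist and the 3 genes closest to each member, of which 1 is not reported here. The other genes named (the floxed Crebbp and Ep300, Rps14, Gpr158 and the pathway enzymes within 2-fold) were chosen after their values were seen.

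Counts were summed per library and class and given as UMIs per 1000000 (CPM) with exact Poisson intervals; ratios have conditional binomial (Clopper-Pearson) intervals, and shares have Clopper-Pearson intervals. There was no test, since each condition had 1 library. A count of 0 was taken to allow 3 UMIs. A ratio past 2-fold (log2 ratio of 1) was counted with at least 100 UMIs in both libraries together, or within classes with at least 20 UMIs and at least 20 nuclei in each library. Nuclei were clustered with Seurat 5.3.0 (R 4.3.3) on 1576 variable genes with 20 principal components, 30 neighbours and resolution 0.6. A cluster was named when at least 60% and at least 3 of a class's markers had a UMI in 10% of its nuclei and were 2-fold over other nuclei, and 2 clusters stayed unnamed. Doublets were called with Scrublet (scanpy 1.11.5) at 0.8% per 1000 nuclei, 191, 73 and 173 nuclei, and kept except in an alternative. For shares, nuclei were thinned to 1500 UMIs, which left 4636, 2922 and 4513. Sums and intervals used pandas 2.3.3, scipy 1.17.1 and numpy 2.4.6 under Python 3.11.15, and figures matplotlib 3.10.9. Promoter sequences came from RefSeq. The ratio intervals were tested on simulated data, but the outcome is not reported here and nothing is read from it. The alternatives were other scalings, filters, resolutions and seeds, classes by marker score, nuclei outside the astrocyte-like class and subtraction of 5% or 10% free RNA.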

Additional observations from a re-analysis of the deposited data

Results flagged for a closer look

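Some members moved in opposite directions in different classes or libraries, and none of these differences could be tested with 1 library per condition. Gpc6 in the CBP-ablated library had a log2 ratio to control of −1.06 in oligodendrocyte-like nuclei (160 control and 486 CBP-ablated nuclei) and 1.35 in microglia-like nuclei (183 and 75 nuclei, 40 and 37 UMIs), and these were 2 of 9 classes. By marker score they were −0.75 and 0.63.

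Ndst4 in the CBP-ablated library had −2.19 in neuron-like nuclei, from 19 UMIs in 3 control nuclei and 8 UMIs in 4 CBP-ablated nuclei, and 1.92 in oligodendrocyte-like nuclei, from 13 and 172 UMIs in 9 and 78 nuclei.

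Ndst3 over all nuclei had −1.26 in CBP-ablated and 1.02 in p300-ablated nuclei, against the same control library. Outside the astrocyte-like class the values were −1.62 and 0.66.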

How the results depend on the processing

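With 1 library per condition no value here has a replicate check, and 1 control library serves both comparisons. No paired analysis was possible because each condition has 1 library and no test was made. Leaving out the astrocyte-like class took the members past 2-fold in the p300-ablated library from 1 to 0 in either direction (Ndst3 had 1.02 over all nuclei, 0.66 outside that class and 0.998 without called doublets), the pathway genes higher in the CBP-ablated library from 1 to 0 and those lower in the p300-ablated library from 2 to 0, and turned the p300-ablated Gpc6 ratio to −0.033. Classes by marker score raised the within-class ratios past 2-fold lower in the p300-ablated library from 3 to 5, turned the Gpc6 ratio of neuron-like nuclei in the CBP-ablated library to −0.91 and the Gpc5 ratio of cluster 5-like nuclei in the p300-ablated library to −0.030. At resolution 1.2 these cluster 5-like nuclei gave −0.23, and Gpc6 in the CBP-ablated ones 0.13. Subtraction of 10% free RNA turned Gpc5 in oligodendrocyte-like nuclei of the CBP-ablated library to 0.79 and in microglia-like nuclei of the p300-ablated library to 0.14. The cause of these shifts was not tested. Ratios within classes past 2-fold lower in the CBP-ablated library numbered 14 to 16 in all 7 alternatives that were run on classes, and the class with the highest control level of the 6 most abundant members was the same in each of them. Shares with a UMI changed with depth in 27 of 30 cases when nuclei were not thinned. Gpc1, Gpc3 and Ndst4 have too few UMIs for most classes.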
